A study of Arabidopsis thaliana with 4 samples.

Results

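The genes described here are those that lie around the centromeres of the 5 chromosomes of Arabidopsis thaliana. They were chosen by locus number alone, as the genes with a single-gene probe and a locus in AT1G36000-AT1G43999, AT2G04000-AT2G14999, AT3G30000-AT3G43999, AT4G05000-AT4G09999 or AT5G27000-AT5G36999. Of 9253 measured genes, 321 met this rule, with 33 on chromosome 1, 93 on chromosome 2, 29 on chromosome 3, 63 on chromosome 4 and 103 on chromosome 5. The other 8932 measured genes served for comparison. RNA was compared on 4 microarrays with 2 dyes each, and every plant was 4 weeks old and of the ecotype Nossen. On 1 array the mutant fas1-2, with a mutation in the p150 subunit of chromatin assembly factor 1 (CAF-1), was set against wild type, and on another the mutant fas2-2, with a mutation in the p60 subunit. The remaining arrays set wild type that had received gamma-rays (100 Gy at a rate of 300 Gy/h) and was collected 6 h or 12 h later against wild type without irradiation. The labels name rosette leaves as the tissue, whereas the design text names seedlings without roots, and no replicate array was analysed for any condition. Values are log2 ratios of the mutant or irradiated RNA (Cy5, red) over wild type (Cy3, green), so that 1 is a 2-fold higher and -1 a 2-fold lower signal. The log base and the sign were read from the scanner software and are not stated in the labels. The dyes ran the same way on all 4 arrays, so a dye effect of a gene cannot be told apart from its ratio.

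The DNA on either side of a plant centromere is packed into heterochromatin, which is rich in transposons and repeats and is kept silent by DNA methylation and by methylation of histone H3. CAF-1 places histones H3 and H4 on newly copied DNA, and in Arabidopsis its loss is known to loosen the silencing of some repeats. Ordinary genes also lie in these regions as islands between the repeats, and the comparison asked whether their transcripts moved together in either mutant or after irradiation.

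In the RefSeq gene list (assembly TAIR10.1) the 5 windows hold 1584 protein-coding genes and 3127 pseudogenes, so pseudogenes made up 66.4% of these loci against 6.22% elsewhere. The share was lowest on chromosome 2 (59.9%) and highest on chromosome 3 (77.1%). Of the 321 measured genes, 320 were protein-coding and 1, AT5G28440, was a pseudogene, at -0.01 in fas1-2, -0.01 in fas2-2, -0.09 at 6 h and -0.05 at 12 h. The measured set therefore covered at most 20.3% of the protein-coding genes in the windows, against at most 34.5% outside them, and did not measure the repeats themselves. Of the 22575 features, 13200 had no gene name and were not read, so probes of further window loci may be among them. Among the 20 nearest coding or pseudogene loci of a pericentromeric gene, the median share of pseudogenes was 40%, ranging from 5% to 95%, and for other measured genes the median was 0%. The share was under 25% for 55 of the 321 genes, so not all of them lay among pseudogenes.

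The middle of the pericentromeric genes lay close to 0 on every array. Their median log2 ratio was 0.01 in fas1-2, 0.01 in fas2-2, -0.01 at 6 h and -0.01 at 12 h. The medians of the other genes were 0.00, -0.01, 0.00 and 0.01. For a single gene, spots of the same transcript on one array had a pooled SD of 0.24 to 0.28 over 48 transcripts. The median SD of these transcripts was lower, at 0.10 to 0.13. The genes were close to evenly split around 0, with 171 of 321 above 0 in fas1-2, 165 in fas2-2, 150 at 6 h and 154 at 12 h. The interquartile range was 0.29 in fas1-2, 0.314 in fas2-2, 0.261 at 6 h and 0.236 at 12 h, against 0.292, 0.303, 0.278 and 0.231 for other genes.

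**Figure D1:**
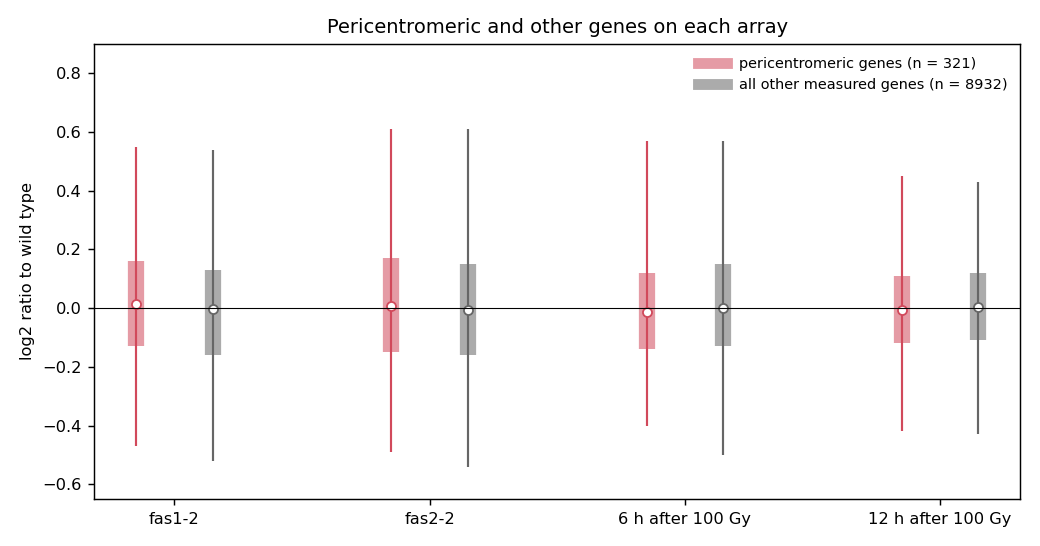
Log2 ratio to wild type (vertical axis) on the 4 arrays for 321 pericentromeric genes (red) and 8932 other measured genes (grey). Circles are medians, thick bars run from the 25th to the 75th percentile and thin lines from the 5th to the 95th; on each array the medians lie within 0.02 of 0 and the bars largely overlap.

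Genes at least 2-fold from wild type were few. In fas1-2, 4 of the 321 genes (1.25%) were at least 2-fold higher, beside 1.58% of all genes, and 3 (0.935%) were at least 2-fold lower, beside 1.29%. In fas2-2, 4 (1.25%) were higher, beside 1.77%, and 2 (0.623%) were lower, beside 1.34%. At 6 h, 5 (1.56%) were higher, beside 1.88%, and 4 (1.25%) were lower, beside 1.01%. At 12 h, 3 (0.935%) were higher, beside 0.908%, and 0 were lower, beside 0.746%. Both directions together gave 2.18% in fas1-2 (exact 95% binomial interval 0.881 to 4.44), 1.87% in fas2-2 (0.689 to 4.02), 2.80% at 6 h (1.29 to 5.26) and 0.935% at 12 h (0.193 to 2.71). These intervals treat genes as independent draws and cover counting error only. The shares of other genes, 2.89%, 3.16%, 2.89% and 1.68%, lay inside each of them.

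In all, 22 pericentromeric genes (6.85%) were 2-fold from wild type on at least 1 array, and 299 were not, beside 8.07% of the other genes. Of the 22, 20 were past 2-fold on a single array. The count was 4 of 33 genes on chromosome 1 (12.1%), 10 of 93 on chromosome 2 (10.8%), 1 of 29 on chromosome 3 (3.45%), 2 of 63 on chromosome 4 (3.17%) and 5 of 103 on chromosome 5 (4.85%). The genes of the same chromosomes outside the windows gave 8.56%, 8.13%, 7.40%, 8.01% and 8.08%.

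In limma, fitted over all 9253 genes with the 2 mutant arrays as one setting and the 2 irradiated arrays as the other, 0 pericentromeric genes passed an adjusted p of 0.05 in the mutants, beside 0.119% of all genes. That background is itself unsteady, since its 11 genes fell to 0 when the arrays were centred or scaled, under robust eBayes, with the mutant arrays fitted alone, and with any 1 array left out. None passed after irradiation or between the settings, where 0% of all genes passed. The smallest adjusted p among them was 0.0646 in the mutants (AT5G27120), 0.197 after irradiation (AT2G07696) and 0.138 between settings (AT5G36290). At an unadjusted p under 0.05 in limma there were 75 in the mutants (23.4%, with 39 higher and 36 lower) beside 20.9% of all genes. After irradiation there were 45 (14.0%, with 20 higher and 25 lower) beside 14.6%, and between settings 53 (16.5%) beside 14.3%. These shares are close to the background. The fit takes its spread from how far the arrays of a setting differ, mutant from mutant and time from time. The p-values measure that alone. Whether it includes spread of the wild-type control depends on whether the arrays shared a control RNA, which the labels do not give.

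The genes high in the mutants were led by UBC31 (AT1G36340), which encodes a ubiquitin-conjugating enzyme. It stood at 1.1 in fas1-2, 0.92 in fas2-2, 0.17 at 6 h and -0.08 at 12 h, high in both mutants and near 0 after irradiation (mutant mean 1.01, SE 0.0971, adjusted p = 0.0787 in limma). AT4G09500 stood at 1.08, 0.84, -0.50 and -0.08. AT5G27750 stood at 0.74, 1.12, 0.28 and 0.38. These genes share the pattern of about 2-fold higher ratios in each mutant and lower ratios after irradiation. AT4G09560, which lies close to AT4G09500, stood at 0.69 in fas1-2, 1.18 in fas2-2, 0.66 at 6 h and 0.12 at 12 h. AT2G04100 stood at 0.68, 1.12, 0.41 and 0.11. AT5G36290 stood at 0.79 and 0.78 in the mutants and at -0.32 and -0.44 after irradiation, with opposite signs in the 2 settings. Its mutant mean was 0.78 (SE 0.0657, adjusted p = 0.0701 in limma), and its difference between settings was 1.16 (SE 0.0929, adjusted p = 0.138). AT5G27950 (0.57 and 0.58), AT3G32930 (0.55 and 0.61), AT5G35170 (0.53 and 0.52) and AT3G42725 (0.50 and 0.56) completed the 10 genes highest in both mutants.

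Other genes were at least 2-fold higher in 1 mutant and close to wild type in the other. AT1G36060 stood at 1.91 in fas1-2, the highest value of any pericentromeric gene in that mutant, and at 0.03 in fas2-2. AT2G04690 stood at 1.38 in fas1-2 and -0.19 in fas2-2. AT2G04400 stood at 0.22 in fas1-2 and 1.1 in fas2-2. A difference between mutants cannot be told apart here from a difference between single arrays.

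The lowest genes in both mutants were a pair from one part of chromosome 2, AT2G05540 and AT2G05510. AT2G05540 stood at -2.29 in fas1-2, -0.99 in fas2-2, 1.13 at 6 h and 0.12 at 12 h. It was low in the mutants and high at 6 h (mutant mean -1.64, SE 0.427, adjusted p = 0.179 in limma, unadjusted p = 0.0206). AT2G05510 averaged -1.08, -1.35, -1.66 and 0.13, but its 2 probes disagreed. One probe gave -1.87, -2.48, -2.93 and 0.39, and the other -0.30, -0.22, -0.38 and -0.12, so its value depends on the probe. The gap between its probes, up to 2.55 at 6 h, was the largest among the 8 pericentromeric genes with several probes.

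The other genes low in both mutants lay within 2-fold of wild type. AT1G42430 stood at -0.81 in fas1-2, -1.0 in fas2-2, -0.28 at 6 h and -0.10 at 12 h, just short of 2-fold in fas2-2 (mutant mean -0.91, SE 0.0877, adjusted p = 0.0787 in limma). AT5G27120 stood at -0.79, -0.74, 0.05 and 0.06. AT5G27430 stood at -0.72, -0.66, 0.03 and 0.05. Both were low by nearly the same amount in each mutant and near 0 after irradiation, with mutant means of -0.77 (SE 0.059) and -0.69 (SE 0.0593) and adjusted p of 0.0646 and 0.0722 in limma. AT3G43430 stood at -0.95 and -0.49 in the mutants and at 0.49 and 0.50 after irradiation, the reverse of AT3G42725, which was at 0.50, 0.56, -0.81 and -0.44. AT5G27220 (-0.44 and -0.46), AT1G36675 (-0.48 and -0.41) and AT4G09160 (-0.40 and -0.71) were also among the 10 lowest in both mutants. For AT5G27980 the mutants gave -1.31 (fas1-2) and 0.46 (fas2-2), with 0.04 at 6 h and 0.21 at 12 h. For AT2G14080 they gave 0.53 (fas1-2) and -2.23 (fas2-2), with 0.83 and 0.02 after irradiation.

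**Figure D2:**
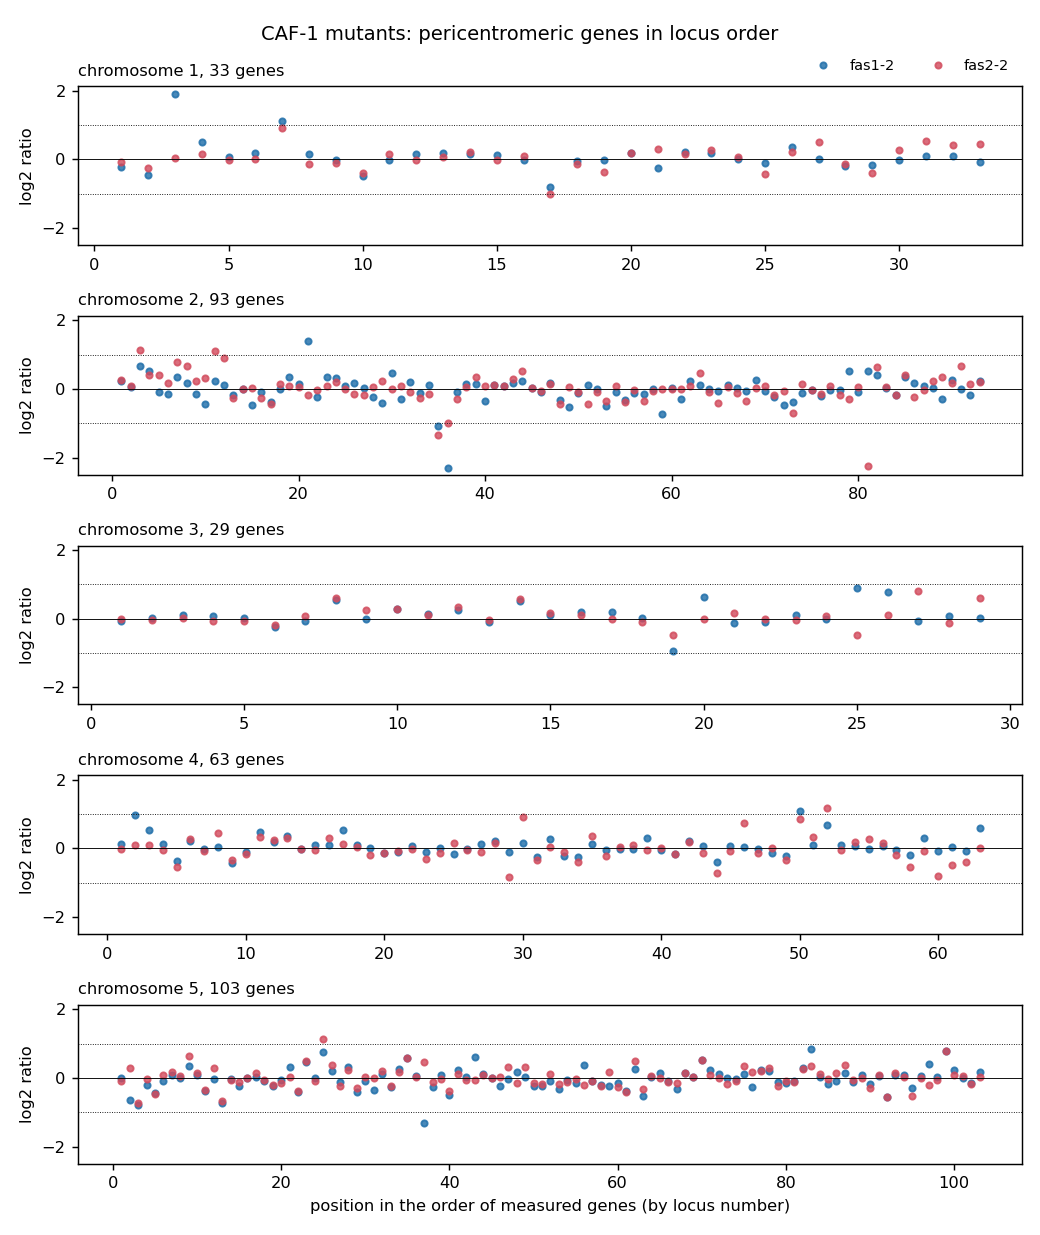
Log2 ratio in fas1-2 (blue) and fas2-2 (red) for each measured pericentromeric gene, with 1 panel a chromosome and genes in the order of their locus numbers (horizontal axis); dotted lines mark 2-fold. Single genes pass the lines, as AT2G05540 does at -2.29 in fas1-2, and no 3 neighbours in a row are all at least 1.5-fold from wild type the same way.

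**Figure D3:**
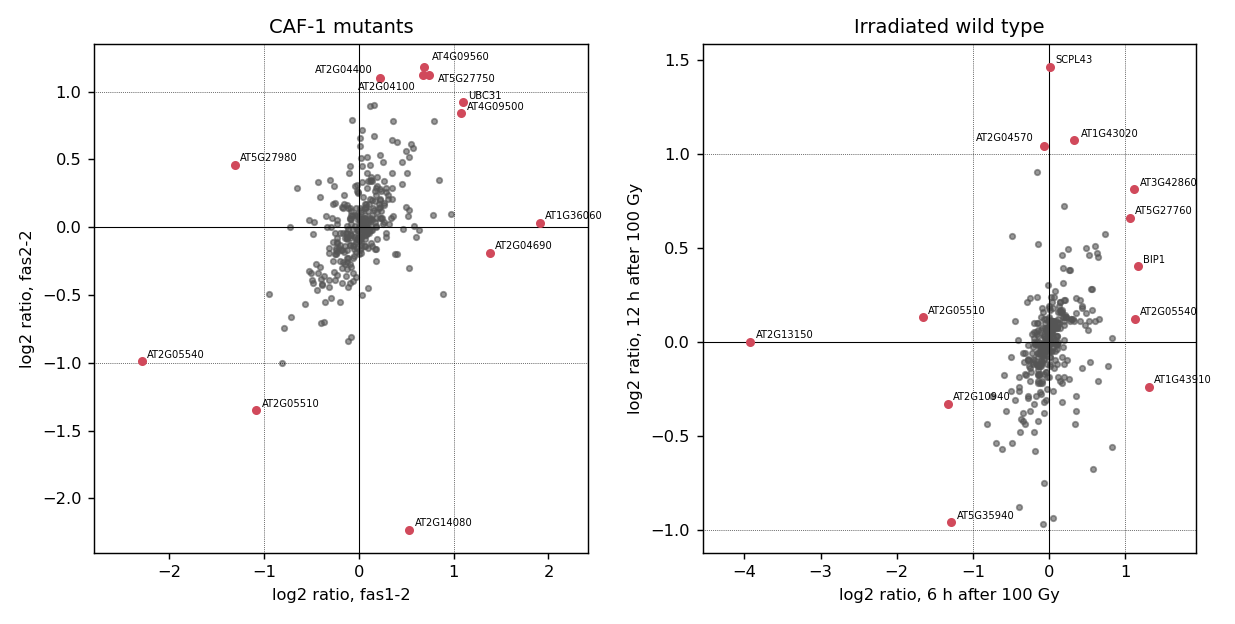
Log2 ratio of the 321 pericentromeric genes in fas1-2 against fas2-2 (left) and at 6 h against 12 h (right); each point is a gene, red and named where at least 2-fold from wild type on either array, and dotted lines mark 2-fold. The labels do not say whether the arrays of a panel shared a wild-type RNA.

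Position within the windows was then considered. No 3 neighbouring measured genes were all at least 1.5-fold from wild type the same way on any array. Averaged over probes, the genes at least 2-fold higher in the mutants lay in the outer parts of the windows. In narrower windows with 165 of the 321 genes, 0 were at least 2-fold higher in fas1-2 or fas2-2, which allows a share of up to 1.82% and so does not separate them from all genes at 1.58% and 1.77%. The other 156 genes held 4 in each mutant. This split depends on the cut-off and on probe averaging. AT4G09500 (1.08 in fas1-2) lies just past the end of the narrower window of chromosome 4. Inside the narrower window of chromosome 5, AT5G28220 had probes at 1.17 and 0.03 in fas1-2, with an average of 0.60. The 4 genes at least 2-fold lower at 6 h all lay in the narrower windows, at 2.42% of the 165 genes beside 1.01% of all genes, and 0 lay among the 156. They were AT2G05510, AT2G10940, AT2G13150 and AT5G35940. The probes of AT2G05510 disagreed (-2.93 and -0.38 at 6 h), and AT2G13150 (-3.92) rests on 1 spot. In the full windows, leaving out genes with several probes gave 3 of 313 (0.958%). Leaving out genes with an exact 0 gave 3 of 318 (0.943%), both beside 1.01% of all genes. In the mutants the narrower windows held 2 lower genes in fas1-2 (1.21%, beside 1.29%) and 1 in fas2-2 (0.606%, beside 1.34%). No test was made of these small counts. Medians of the 165 genes were -0.01 in fas1-2, -0.01 in fas2-2, -0.04 at 6 h and -0.01 at 12 h, and those of the 156 genes were 0.03, 0.03, 0.01 and 0.01.

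Ratios were then set against the surroundings of each gene. The 40 genes with at least 75% pseudogenes among their 20 nearest loci had medians of -0.03 in fas1-2, -0.03 in fas2-2, -0.05 at 6 h and 0.00 at 12 h. The 55 genes with under 25% had medians of 0.01, -0.05, 0.00 and 0.01. Across the 321 genes the Spearman correlation of the ratio with the share of pseudogenes was -0.03, -0.02, -0.11 and 0.00. These are correlations across genes of 1 array each, which share that array's dye and centring. Genes 2-fold on some array were counted from the least to the most pseudogene-rich group. They were 2 of 55 (3.64%), 11 of 132 (8.33%), 6 of 94 (6.38%) and 3 of 40 (7.50%), with no steady order. Outside the windows the same groups gave 688 of 8644 (7.96%), 28 of 258 (10.9%), 5 of 26 (19.2%) and 0 of 4. The share of all genes outside the windows was 8.07%.

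At the ends of the windows, the measured genes just inside had values from -0.40 to 1.31 over the 10 ends and 4 arrays, and those just outside from -0.58 to 1.44. Past 2-fold were 1 gene inside, AT1G43910 (1.31 at 6 h), and 3 outside, AT1G35780 (1.08 in fas1-2), AT3G29970 (1.33 in fas2-2) and AT5G37130 (1.44 in fas1-2). With 10 genes a side and 8.07% of genes outside the windows past 2-fold on some array, these counts are too small to compare. The genes just inside were AT1G36030, AT1G43910, AT2G04039, GH3.1 (AT2G14960), AGL79 (AT3G30260), AT3G43960, NDB2 (AT4G05020), AT4G09930, AGL53 (AT5G27070) and THI2.2 (AT5G36910).

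After irradiation the genes high at both times were AT3G42860 and AT5G27760. AT3G42860 stood at 0.11 in fas1-2, 0.17 in fas2-2, 1.12 at 6 h and 0.81 at 12 h (irradiated mean 0.97, SE 0.0978, adjusted p = 0.197 in limma). AT5G27760 stood at 0.19, 0.37, 1.06 and 0.66. Its neighbour AT5G27750, high in the mutants, was at 0.28 and 0.38 after irradiation, so the 2 adjacent genes differed in where they were highest. EXO (AT4G08950), a gene tied to brassinosteroid-promoted growth, stood at -0.04 and 0.01 in the mutants and at 0.65 and 0.45 after irradiation (irradiated mean 0.55, SE 0.0781, adjusted p = 0.223 in limma). AT2G06040 (0.73 and 0.57), AT3G43960 (0.63 and 0.47), AGL54 (AT5G27090; 0.60 and 0.51) and AT2G14110 (0.53 and 0.46) were also among the highest at both times.

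Among the genes with a known role in the endoplasmic reticulum, BIP1 (AT5G28540), an HSP70-type chaperone of the endoplasmic reticulum, stood at 0.03 in fas1-2, 0.33 in fas2-2, 1.17 at 6 h and 0.40 at 12 h. BZIP60 (AT1G42990), a transcription factor that acts in the unfolded protein response, stood at 0.17, 0.27, 0.64 and -0.21. OS9 (AT5G35080), a lectin of the quality control of secreted proteins, stood at -0.09, -0.13, 0.20 and 0.13. The OS9 value at 6 h lies within the pooled SD between spots (0.25). None of these 3 genes passed in limma, and the probe for BIP1 may also read its near-identical copy. They were picked after their values were seen and stand for no list.

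The lowest gene at both times after irradiation was AT5G35940. It stood at -0.57 in fas1-2, -0.57 in fas2-2, -1.28 at 6 h and -0.96 at 12 h, below wild type on every array, and its irradiated mean of -1.12 (SE 0.0994) had an adjusted p of 0.197 in limma. AT2G13150, listed as the transcription factor bZIP31, had the lowest value of any pericentromeric gene, -3.92 at 6 h. It stood at an exact 0 at 12 h and at -0.37 and -0.70 in the mutants, so its low value rests on 1 spot of 1 array. AT2G10940 stood at 0.25 and 0.02 in the mutants, -1.33 at 6 h and -0.33 at 12 h. AT4G09420 (-0.39 and -0.88), AT3G42725 (-0.81 and -0.44), AT2G13900 (-0.38 and -0.48) and AT2G14910 (-0.37 and -0.41) were low at both times.

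High at 12 h were SCPL43 (AT2G12480), AT1G43020 and AT2G04570. SCPL43, a serine carboxypeptidase-like gene, stood at -0.48 in fas1-2, -0.05 in fas2-2, 0.02 at 6 h and 1.46 at 12 h. AT1G43020 stood at 0.01, 0.06, 0.33 and 1.07. AT2G04570 stood at -0.39, -0.43, -0.06 and 1.04. On the same array the 4 measured genes of an anther marker list had a median of 3.11, from 0.09 to 3.42. At 6 h their median was -0.20, from -1.11 to 1.73. In the mutants it was -0.31 in fas1-2 (from -1.54 to 0.08) and 0.00 in fas2-2 (from -1.27 to 0.03). The part of anther tissue in the 12 h values was not tested, and in whole tissue more cells of a type and more RNA per cell cannot be told apart. RECQSIM (AT5G27680), a RecQ-type DNA helicase, stood at -0.05, -0.16, -0.08 and -0.97, the lowest value at 12 h. AT1G43910 had the highest value at 6 h, 1.31, and stood at -0.24 at 12 h.

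**Figure D4:**
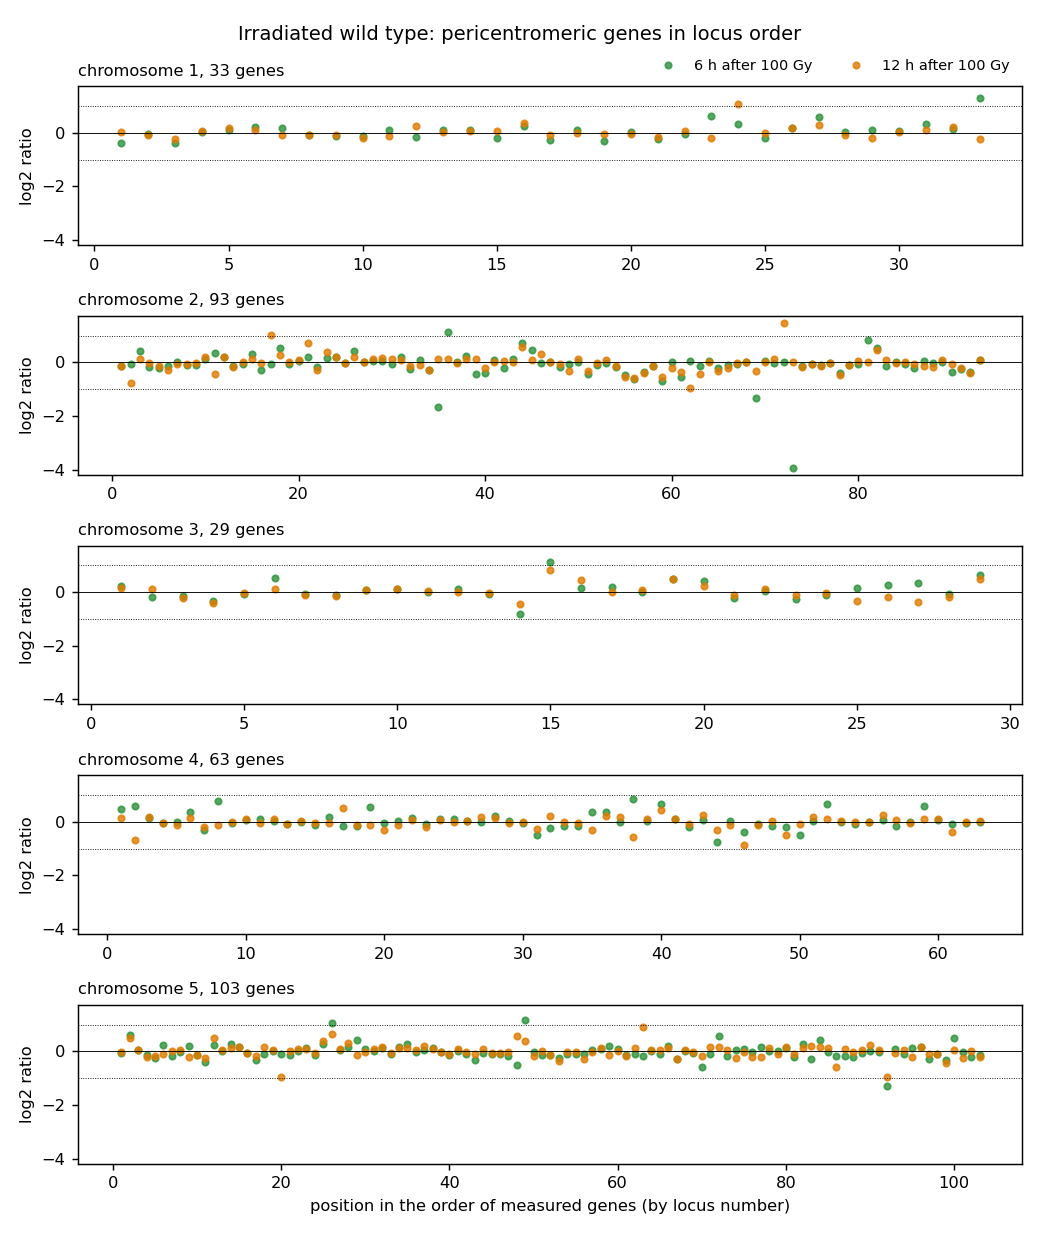
Log2 ratio at 6 h (green) and 12 h (orange) after 100 Gy for each measured pericentromeric gene, with 1 panel a chromosome and genes in the order of their locus numbers (horizontal axis); dotted lines mark 2-fold. AT2G13150 lies at -3.92 at 6 h in the panel of chromosome 2, where a stretch of genes to its left lies mostly below 0 at both times.

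The pericentromere of chromosome 2 holds a large insertion of mitochondrial DNA, known from the Columbia genome sequence. Its sequence is nearly that of the organelle, so a probe may read transcripts of the nuclear copy, of the mitochondrion or of both. Between AT2G07660 and AT2G07680 in the reference order, 16 genes were measured, and 14 of 16 were below 0 at 6 h and 14 of 16 at 12 h. Their median was -0.16 at 6 h (from -0.70 to 0.05) and -0.32 at 12 h (from -0.94 to 0.08). The other 77 genes of that window had medians of -0.04 and 0.01, with 43 and 37 below 0. Of the 16 genes, 13 were below 0 at both times. In the mutants the medians of the 16 genes were -0.03 in fas1-2 (10 below 0) and -0.05 in fas2-2 (11 below 0).

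AT2G07696 stood at -0.12 in fas1-2, -0.04 in fas2-2, -0.61 at 6 h and -0.57 at 12 h (irradiated mean -0.59, SE 0.0615, adjusted p = 0.197 in limma). AT2G07695 stood at -0.32, -0.39, -0.48 and -0.54, low on every array. AT2G07705 stood at -0.73, 0.00, -0.70 and -0.54. These were the genes of the insertion lowest at both times, with AT2G07708 (-0.56 and -0.37) and AT2G07698 (-0.34 and -0.38) next. AT2G07713 was lowest at 12 h, at -0.94, but stood at 0.05 at 6 h. AT2G07719 (0.04 and 0.03) was above 0 at both times, and AT2G07687 stood at -0.01 and 0.08. Several others lay near 0, within the pooled SD between spots (0.25 at 6 h and 0.27 at 12 h). Among them were AT2G07676 (-0.10 and -0.03), AT2G07691 (-0.17 and -0.12), AT2G07702 (-0.14 and -0.12), AT2G07706 (0.00 and -0.19) and AT2G07734 (-0.09 and -0.22). No gene of the insertion reached 2-fold on any array or passed in limma, and at an unadjusted p under 0.05 there were 5 of 16 after irradiation, beside 14.6% of all genes, and 3 of 16 in the mutants, beside 20.9%. The insertion was singled out after its values were seen, so no test was made of it as a group, and its presence in Nossen was not tested.

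**Figure D5:**
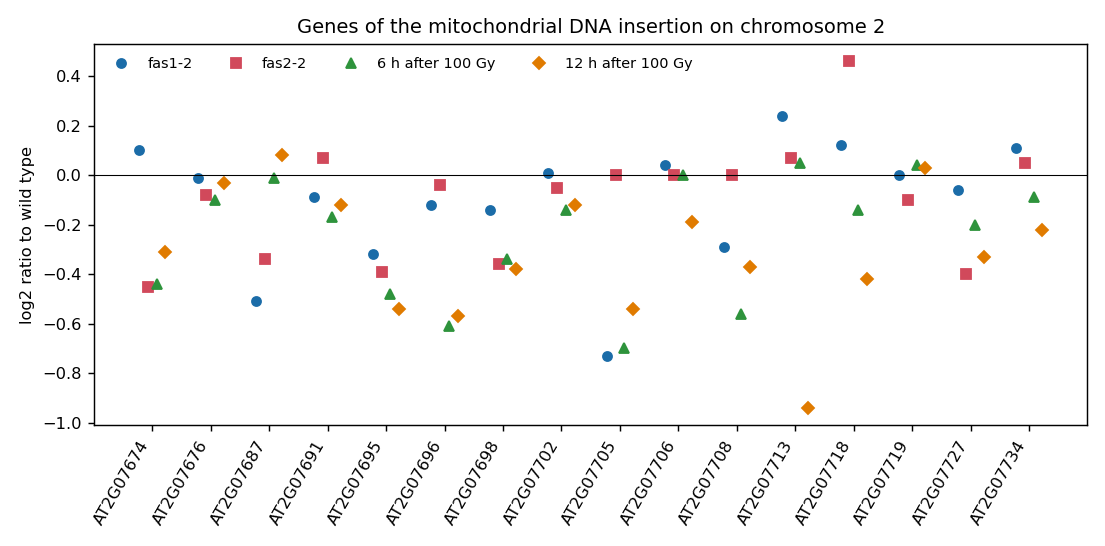
Log2 ratio to wild type (vertical axis) on the 4 arrays for the 16 measured genes of the mitochondrial DNA insertion on chromosome 2, in reference order. At 12 h 14 of 16 genes lie below 0, and the lowest value is -0.94 for AT2G07713.

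Of the 321 genes, 50 carry a gene symbol in the reference list, and these cover varied roles. Their medians were 0.02 in fas1-2, 0.05 in fas2-2, 0.02 at 6 h and 0.02 at 12 h, and UBC31, BIP1 and SCPL43 were the ones past 2-fold. Among genes of chromatin and transcription, HDA7 (AT5G35600), a histone deacetylase, stood at 0.29 in fas1-2, 0.26 in fas2-2, 0.28 at 6 h and 0.11 at 12 h. NRPB6B (AT2G04630), a subunit shared by nuclear RNA polymerases, stood at 0.01, 0.14, 0.55 and 0.28. SEU (AT1G43850), a transcriptional co-regulator of flower development, stood at -0.01, 0.26, 0.06 and 0.02. All 3 lay within about 1.5-fold of wild type. The 5 AGAMOUS-like genes of the MADS-box family ranged from -0.65 to 0.01 in fas1-2, from -0.08 to 0.29 in fas2-2, from -0.12 to 0.60 at 6 h and from -0.22 to 0.51 at 12 h, with 0 past 2-fold.

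Among genes of ribosome assembly and RNA, YAO (AT4G05410), a nucleolar protein of ribosomal RNA processing, stood at -0.43 in fas1-2, -0.34 in fas2-2, -0.04 at 6 h and 0.00 at 12 h, and RH39 (AT4G09730), a DEAD-box RNA helicase, at -0.20, -0.55, -0.01 and -0.05. Both were lower in the mutants than after irradiation, by less than 1.5-fold from wild type. Among metabolic genes, GME (AT5G28840), an epimerase on the route to ascorbate, stood at -0.32, -0.19, -0.25 and -0.37, below wild type on every array. GSTU27 (AT3G43800), a glutathione transferase, stood at -0.07, 0.79, 0.35 and -0.37, with no common direction within either setting. NDB2 (AT4G05020), an NAD(P)H dehydrogenase of mitochondria, stood at 0.13, -0.02, 0.49 and 0.15. Other named genes with a value of some size were the sugar transporter family gene SFP1 (AT5G27350; 0.35 and 0.64 in the mutants), the IQ-domain gene iqd33 (AT5G35670; 0.85 and 0.35) and the beta-glucosidase gene BGLU24 (AT5G28510; -0.49 at 6 h and 0.56 at 12 h).

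The silencing machinery itself was barely covered by named probes. Of the 22575 features, 13200 had no gene name and were not read, so probes of further silencing genes may be among them. Of 51 genes listed for DNA and histone methylation, small RNA silencing, replication-coupled silencing and heterochromatin histones or chaperones, 6 had a named probe, and none of these lies in the windows. None reached 2-fold or passed in limma. DME (AT5G04560), a DNA demethylase, stood at 0.26 in fas1-2, 0.15 in fas2-2, 0.21 at 6 h and 0.10 at 12 h, and was the measured member of the methylation list of 19. ICU2 (AT5G67100), the DNA polymerase alpha subunit, stood at 0.25, 0.29, -0.51 and 0.17, and was the measured member of the list of 7 for replication-coupled silencing. The 13 genes of RNA-directed DNA methylation had no named probe. The 4 measured of 12 chaperone and heterochromatin histone genes had medians of 0.25, 0.37, -0.33 and -0.18. Among them ASF1A (AT1G66740), a chaperone of histones H3 and H4, stood at -0.12 and -0.04 in the mutants and at 0.12 and 0.08 after irradiation. The histone genes HON1 (AT1G06760; 0.36, 0.30, -0.35 and -0.31) and HON2 (AT2G30620; 0.30, 0.44, -0.31 and -0.44) were above 0 in both mutants and below 0 at both times. HTR12 (AT1G01370), the centromeric histone H3, stood at 0.20, 0.48, -0.92 and -0.05. Besides anther genes, markers of leaf, root and dividing cells had 1 of 8, 2 of 7 and 2 of 7 genes measured. RCA (AT2G39730), the leaf gene, stood at -0.05, -0.20, -0.49 and -0.17. The root genes had medians of 0.15, 0.87, -0.32 and 0.08, and the genes of dividing cells 0.32, 0.53, -0.71 and -0.03. The 2 genes of dividing cells were MCM7 (AT4G02060) and again HTR12, so this list and the histone list share a gene. Ratios give no level, so the labelled tissue could not be checked against its markers.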

How the data were processed

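RNA was measured on 4 two-colour Agilent Arabidopsis 2 arrays, 1 a condition, with wild type in Cy3 and the mutant or irradiated RNA in Cy5 on every array, per the labels. Each deposited value was taken as a log10 ratio. Agilent Feature Extraction is named in the submitters' processing notes, and its background correction and dye normalization are not given in the sources used here. Deposited column medians lay between -0.0014 and -0.0004. Intensities were not used here, so signal over background could not be judged, no spot was filtered, and the number of arrays limits the precision.

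The log10 ratios were multiplied by 3.32 to give log2. The platform annotation gave 9335 of the 22575 features exactly 1 gene, 40 more than 1, and 13200 no name. Names were matched to RefSeq loci (TAIR10.1) by gene ID (9317), locus (16) or symbol (2), and probes of a gene were averaged. Positions are given by locus number only, because the sources used here name no build for the probes. The fit was limma 3.58.1 in R 4.3.3 (lmFit and eBayes, with 2 residual degrees of freedom plus 1.78 from the prior) over all genes. Benjamini-Hochberg adjustment was over all of them. The code was tested on simulated data with independent noise and neither a dye effect nor a shared control. Its recovery of small changes is not reported here. Whether the arrays shared a control RNA, or came from separately grown plants, is not in the labels. Named genes were drawn from those at least 2-fold on any array, the 10 highest and 10 lowest in a setting, ranked on whichever array was nearer to 0, the extremes of each window, pseudogenes, list members and genes at window ends, and the text names fewer than this rule gives. Genes named for their symbol, and the insertion on chromosome 2, were chosen after values were seen. The genes and lists were chosen with earlier results of these data known. Alternatives were centring or scaling of arrays, genes with several probes or an exact 0 left out, narrower and wider windows, a 1.5-fold threshold, the values read as log2, robust eBayes, each setting fitted alone, and each array left out.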

Additional observations from a re-analysis of the deposited data

Results flagged for a closer look

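A pair of pericentromeric genes lay on opposite sides of wild type in the 2 mutants, past 2-fold in one and beyond the pooled SD between spots (0.24 and 0.28) in the other. For AT2G14080 the log2 ratio was 0.53 with fas1-2 but -2.23 with fas2-2. For AT5G27980 it was -1.31 with fas1-2 but 0.46 with fas2-2. With 1 array a mutant the difference was not tested. No pericentromeric gene met the same condition between 6 h and 12 h.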

How the results depend on the processing

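In limma, many alternatives could give no count other than 0. After irradiation and between settings, 0 of all genes passed in the main fit, with arrays centred or scaled, and under robust eBayes. In the mutants, 0 of all genes passed with arrays centred or scaled, under robust eBayes, or with the mutant arrays alone. Narrower windows hold a part of the same genes, so their count was fixed too. Without genes of several probes, or of an exact 0, some genes passed in the mutants, but 0 pericentromeric genes did. In wider windows of 569 genes, 1 gene, AT5G26360 (mutant mean -1.37, SE 0.0651, adjusted p = 0.0487), passed in the mutants. That call belongs to the 11 of all genes that fell to 0 when arrays were centred, scaled or left out, or under robust eBayes. The group medians lay between -0.044 and 0.016 under all 24 alternatives, and 1 moved beyond its 95% binomial interval, that of fas1-2 in narrower windows (-0.012). For the counts of 2-fold genes, 34 of 64 alternatives stayed within 1.5 times. Counts are given as higher and lower. In narrower windows of 165 genes these were 0 and 2 in fas1-2, 0 and 1 in fas2-2, and 1 and 0 at 12 h. At 6 h they were 3 and 4 (2.42% lower, beside 1.01% of all genes), with the probe-dependent AT2G05510 and the single-spot AT2G13150 among the 4. In wider windows they were 10 and 9 in fas1-2, 12 and 9 in fas2-2, 10 and 8 at 6 h, and 7 and 2 at 12 h, or 1.76% and 1.58%, 2.11% and 1.58%, 1.76% and 1.41%, and 1.23% and 0.351%, beside 1.58% and 1.29%, 1.77% and 1.34%, 1.88% and 1.01%, and 0.908% and 0.746% of all genes. At 1.5-fold they were 14 and 9, 18 and 10, 15 and 9, and 7 and 6, or 4.36% and 2.80%, 5.61% and 3.12%, 4.67% and 2.80%, and 2.18% and 1.87%, beside 4.38% and 3.93%, 5.34% and 4.12%, 4.85% and 3.52%, and 2.98% and 2.68% of all genes. With the deposited values read as log2 they were 0 and 0, 0 and 0, 0 and 1, and 0 higher at 12 h. Under that reading 0.0108% to 0.0324% of all genes passed in a direction, so these counts do not set the pericentromeric genes apart. Without genes of several probes 1 gene was lower in fas2-2 (0.319%, beside 1.34% of all genes). With arrays scaled to 1 spread 4 were lower at 12 h, beside 1.34% of all genes. No paired analysis was possible because each condition had 1 array and the labels number no replicates. Without intensities, low signals could not be set apart.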
